A study of Homo sapiens with 6 samples.

Results

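The 32 genes described here code for enzymes that make cholesterol and fatty acids and for the regulators that control those enzymes. They were taken by symbol from the 27672 genes of the expression table: 8 mevalonate pathway enzymes, 11 enzymes between farnesyl pyrophosphate and cholesterol, 5 regulators of the sterol regulatory element binding proteins (SREBPs), and 8 enzymes that supply acetyl-CoA or build, lengthen and desaturate fatty acids. All 32 passed the filter on low counts that left 15517 genes for testing.

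Polyadenylated RNA was sequenced from 3 biological replicates of undifferentiated H9 human embryonic stem cells (hESCs, day 0) and 3 of neuromesodermal progenitor-like (NMP-L) cells made from them (day 3). H9 is 1 human embryonic stem cell line, so both conditions share its genotype, and no gene was altered in either. For the hESCs the labels give feeder-free culture on fibronectin in DEF medium containing 30 ng/ml bFGF and 10 ng/ml of the BMP inhibitor Noggin. NMP-L cells had 3 days in a basal medium with the N2 and B27 supplements, bFGF at 20 ng/ml and, to activate Wnt signalling, the GSK3 inhibitor CHIR99021 at 3 µM. The media themselves can differ in lipid content, and the change of medium and the change of cell state cannot be told apart in this design. The study's Methods describe TeSR medium on Geltrex for hESCs and further inhibitors late in NMP-L culture, which the labels of these libraries do not mention. The labels call the replicates biological, and the Methods name separate experiments in the account of the chromatin libraries without stating whether the RNA was meant, so the p-values measure the spread between these libraries.

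Cells make cholesterol from acetyl-CoA through mevalonate, the isoprenoids and squalene, and make fatty acids from the same acetyl-CoA through malonyl-CoA. Both routes are under feedback control by SREBPs, transcription factors held as precursors in the membrane of the endoplasmic reticulum. When membrane sterol is low, SCAP escorts the precursors to the Golgi for cleavage, and the freed part binds sterol regulatory elements in the promoters of most of the genes named here, whereas INSIG proteins retain SCAP when sterol is plentiful. Proliferating cells need both products for new membrane.

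The libraries held 19454543 to 23036426 expected counts each, and 3 counts, taken as the detection floor, corresponded to between 0.130 and 0.154 CPM, counts scaled to a common library total. Levels are given as CPM after TMM scaling, or as TPM, which is per transcript length, where genes are compared with each other. Rank correlations over tested genes were 0.991 to 0.995 between libraries of 1 condition and 0.940 to 0.949 between conditions. Of the 8 pluripotency markers, 7 of 7 tested were lower in NMP-L cells. Of the 9 neuromesodermal progenitor markers 6 of 7 tested were higher, and SOX2 did not pass the threshold, at 266 ± 12.6 and 278 ± 23.6 CPM. FGF8 and HOXB1 had too few counts to be tested. FGF8 went the other way without overlap, from 0.382 ± 0.177 CPM in hESCs to 0.0906 ± 0.0466 CPM in NMP-L cells. HOXB1 stood at 0.0702 ± 0.0317 and 0.146 ± 0.103 CPM in the same order. Markers of endoderm, liver and yolk sac, which include tissues with abundant lipid synthesis, had summed levels of 3.41 to 5.44 TPM in hESC and 14.8 to 26.5 TPM in NMP-L libraries. Most of the NMP-L sum was FOXA2, at 0.103 ± 0.111 TPM in hESC and 17.2 ± 5.26 TPM in NMP-L libraries (0.121 ± 0.129 against 18.7 ± 5.35 CPM). In NMP-L cells SOX17 averaged 0.0150, GATA4 0.262, GATA6 0.242, HNF4A 0.119 and APOA1 0.0896 CPM, and AFP was at 0. TTR was at 0 in all libraries, ALB averaged 0.108 ± 0.0980 CPM in NMP-L cells, and only 3 of the 11 markers were tested (1 higher, 1 lower). Their part in the results below was not tested. Paraxial mesoderm markers (4 of 7 tested, 1 higher and 2 lower) and neural progenitor markers (5 of 9 tested, 1 higher and 2 lower) moved in both directions. In such bulk RNA, fewer cells of a type and less RNA per cell cannot be told apart.

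The cholesterol and fatty acid synthesis genes were mostly higher at day 3, in NMP-L cells, than at day 0. Of the 32, 23 were higher, 2 (PMVK and AACS) were lower, and 7 (LSS, TM7SF2, HSD17B7, SCAP, FASN, ACACA and ACLY) did not pass the threshold, an adjusted p under 0.05 over all tested genes in edgeR's quasi-likelihood test with Benjamini-Hochberg adjustment. Over all tested genes 55.8% differed between the conditions, 29.1% being higher and 26.7% lower, so the members differed in 78.1% and were higher in 71.9%. The median log2 fold change of the members was 0.58, beside 0.03 for all tested genes. Most of these changes were below 2-fold, and 5 members were higher by at least 2-fold, namely INSIG1, SREBF1, HMGCS1, MSMO1 and IDI1, or 15.6% of them against 9.38% of tested genes. With hESC replicate 1 left out this count was 8, and the share of tested genes higher by at least 2-fold was not taken there. The libraries of the conditions did not overlap for 28 members, against 61.6% of tested genes, whereas TM7SF2, HSD17B7, SCAP and FASN had overlapping libraries. Summed over the 32 genes, the level was 2036 to 2130 TPM per hESC library and 3097 to 3250 TPM per NMP-L library.

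**Figure D1:**
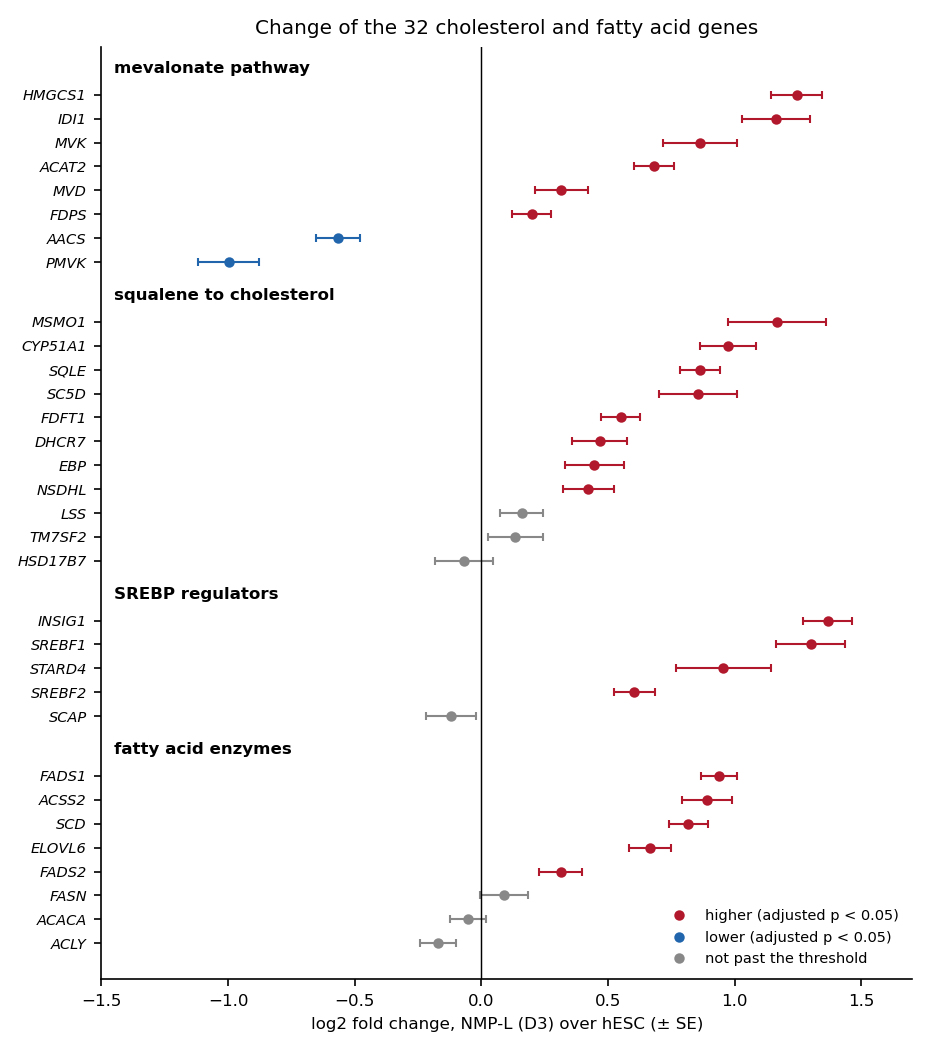
Log2 fold change of each of the 32 genes in NMP-L (D3) cells over hESCs, in 4 groups by role, with points coloured by the result of the edgeR test and bars giving ± SE from 3 libraries per condition. Of the points, 23 lie to the right of 0 and past the threshold, PMVK and AACS lie to the left, and 7 are grey.

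The 5 genes grouped as SREBP regulators had the largest median change of the 4 groups, 0.96 on the log2 scale, with 4 of the 5 higher. That median is the value of STARD4, a sterol carrier with scattered libraries, which ranged from 0.74 to 1.17 across the settings. SREBF1 (chr17:17713713-17740316, minus strand, all gene coordinates on GRCh37) codes for the SREBP best known for activating fatty acid synthesis. Its level in the 3 hESC libraries was 27.6, 42.1 and 34.3 CPM, whereas the 3 NMP-L libraries had 93.3, 80.4 and 82.5 CPM. The lowest NMP-L library thus stood above the highest hESC library, and the change was 2.46-fold (log2 fold change 1.30 ± 0.14, edgeR adjusted p = 9.78e-06). Gene-level counts do not separate the isoforms of SREBF1 that start at different promoters.

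SREBF2 (chr22:42229109-42303310, plus strand) codes for the SREBP that mainly drives sterol synthesis and uptake. It was the more abundant of the pair throughout, at 181, 192 and 196 CPM in hESCs against 317, 277 and 271 CPM in NMP-L cells. The 1.52-fold rise (log2 fold change 0.60 ± 0.082, edgeR adjusted p = 7.61e-05) left no overlap between the conditions. Per transcript length, the ratio of SREBF1 to SREBF2 was 0.169, 0.246 and 0.196 at day 0 and 0.322, 0.325 and 0.332 at day 3. The mean ratio went from 0.204 ± 0.0395 to 0.326 ± 0.00545 (SD, n = 3), a change of 0.70 on the log2 scale, with no overlap between the conditions. The exact two-sided permutation test gave p = 0.1 (0.1 after adjustment over the 2 ratios tested), which is the smallest value that 3 against 3 libraries allow.

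INSIG1 (chr7:155089486-155101945, plus strand) codes for the protein that holds SCAP in the endoplasmic reticulum, and it is itself a well-known SREBP target. Its level went from 18.3, 16.4 and 17.5 CPM to 44.7, 42.8 and 47.3 CPM, or 2.58-fold (log2 fold change 1.37 ± 0.097, edgeR adjusted p = 4.26e-07), the largest change of the 32 genes in this fit and in 13 of the 17 other settings of filter, scaling, model and libraries. SREBF1 was ahead in 3 of them, without hESC replicate 2 (1.46 on the log2 scale) and with the libraries corrected for transcript GC content and length (1.60, or 1.61 with the replicate block added), and MSMO1 without hESC replicate 1 (1.38). Each condition's libraries lay close together, and the gap between the conditions was many times the spread within them. STARD4 (chr5:110831731-110848288, minus strand), which carries sterol between membranes, stood at 28.5, 16.5 and 20.7 CPM in hESCs and at 36.5, 38.6 and 52.2 CPM in NMP-L cells (log2 fold change 0.96 ± 0.19, edgeR adjusted p = 0.00111). Its libraries were more scattered, with hESC replicate 1 and NMP-L replicate 3 highest in their conditions. SCAP (chr3:47455171-47518616, minus strand), the sterol-sensing escort of SREBPs, was the exception among the regulators. SCAP levels overlapped, at 87.9, 102 and 106 CPM in hESCs against 97.3, 92.8 and 81.5 CPM in NMP-L cells (log2 fold change -0.12 ± 0.098, edgeR adjusted p = 0.321), which did not pass the threshold. With the GC and length correction the value turned to 0.15 (edgeR adjusted p = 0.0486), or 0.14 (0.0902) with the replicate block added, so neither a change nor its direction was settled for SCAP.

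**Figure D2:**
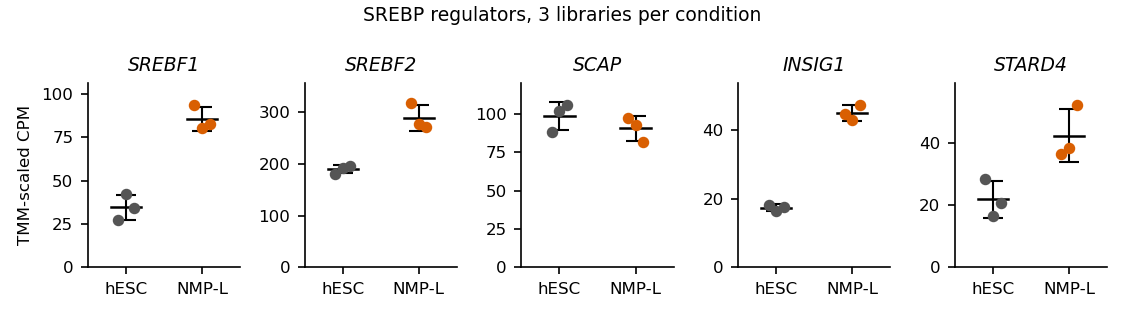
TMM-scaled CPM (linear axis from 0) of the 5 SREBP regulators in each library, 3 hESC (grey) and 3 NMP-L (orange), with the mean as a line and ± SD as bars. The conditions are apart for SREBF1, SREBF2, INSIG1 and STARD4 and overlap for SCAP.

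Since SREBPs act through promoters, the promoter sequences in RefSeq (GRCh38.p14) were searched on both strands for the sterol regulatory element TCACNCCAC, the CCAAT box CCAAT (bound by NF-Y, a known partner of SREBPs), the GC box GGGCGG (bound by Sp1) and the E-box CACGTG. The 250 bases before the start of 3 regulators are printed 5′ to 3′ as examples with and without the motifs, with CCAAT boxes on either strand and sterol regulatory elements, also those that depart from the motif by 1 letter, in capitals. SREBF2 (chr22:41832855-41833104, plus strand) has the only exact element of the members searched, INSIG1 (chr7:155297628-155297877, plus strand) has a pair with 1 letter different, and SREBF1 (chr17:17836987-17837236, minus strand) has no capitals, since neither motif was found before this start. The last 2 were chosen after their values were seen.
SREBF2: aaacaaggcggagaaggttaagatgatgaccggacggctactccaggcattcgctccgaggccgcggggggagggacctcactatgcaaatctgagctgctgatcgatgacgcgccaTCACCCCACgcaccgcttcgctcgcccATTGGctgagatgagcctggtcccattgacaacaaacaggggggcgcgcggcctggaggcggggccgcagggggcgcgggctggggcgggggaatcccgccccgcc
INSIG1: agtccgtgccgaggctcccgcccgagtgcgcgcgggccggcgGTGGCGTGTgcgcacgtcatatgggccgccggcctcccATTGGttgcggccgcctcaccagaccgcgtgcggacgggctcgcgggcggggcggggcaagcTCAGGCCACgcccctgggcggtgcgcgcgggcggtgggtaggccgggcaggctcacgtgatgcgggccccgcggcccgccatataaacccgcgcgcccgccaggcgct
SREBF1: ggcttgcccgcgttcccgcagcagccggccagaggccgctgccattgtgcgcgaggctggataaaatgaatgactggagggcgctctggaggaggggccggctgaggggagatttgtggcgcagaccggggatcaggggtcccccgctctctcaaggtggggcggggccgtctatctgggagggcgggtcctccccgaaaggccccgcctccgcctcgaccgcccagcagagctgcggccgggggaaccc
The exact element of SREBF2 begins 133 bases before the start and its CCAAT box, read on the minus strand, 106 bases before it.

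The promoter sequences used had entries for 28 of the 32 members, all except ACAT2, FDFT1, SQLE and FASN, which were therefore not searched. Of the 28, 8 had several starts, which gave 38 promoters of 250 bases before and 50 after the start. Starts of 1 gene can share sequence, so the promoters are not independent. CCAAT boxes were found in 25 of the 38 (65.8%), against 34.1% of the 16972 promoters of tested genes. By gene, 16 of 20 higher members had at least 1 CCAAT box, as did 5 of 6 members that did not pass the threshold, and neither of the 2 lower members did. The share by gene over all tested genes was not taken. Genes with several starts have more windows, so these counts cannot be set against the 34.1%. GC boxes were found in 89.5% of member promoters, against 64.9% for tested genes, and E-boxes in 13.2% against 9.08%. The exact sterol regulatory element stood in 1 of the 38 (2.63%) against 1.07%, and allowing 1 letter to differ it stood in 17 (44.7%) against 24.9%. These matches describe letters in a fixed window and do not show binding.

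The mevalonate pathway enzymes, which turn acetyl-CoA into the isoprenoid units that sterols are built from, all differed between the conditions, with 6 higher and 2 lower (median log2 fold change 0.50). HMGCS1 (chr5:43287572-43313614, minus strand), the cytosolic HMG-CoA synthase, rose most, except that MVK was ahead with the GC and length correction. Its level was 114, 96.2 and 94.3 CPM at day 0 and 226, 227 and 267 CPM at day 3, a 2.37-fold difference (log2 fold change 1.24 ± 0.10, edgeR adjusted p = 1.16e-06). IDI1 (chr10:1085092-1095059, minus strand), the isopentenyl diphosphate isomerase, rose 2.24-fold, from 27.6, 24.9 and 21.5 CPM to 47.2, 52.9 and 65.3 CPM (log2 fold change 1.16 ± 0.13, edgeR adjusted p = 2.16e-05). For both genes the conditions were well apart, and hESC replicate 1 and NMP-L replicate 3 were again the highest of their conditions.

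MVK (chr12:110011060-110035930, plus strand) and PMVK (chr1:154897216-154909195, minus strand) catalyse the consecutive phosphorylations of mevalonate, and their transcripts moved in opposite directions. MVK, the mevalonate kinase, was the least abundant member per transcript length and stood at 4.33, 5.51 and 5.59 CPM in hESCs against 10.1, 9.59 and 8.36 CPM in NMP-L cells (log2 fold change 0.86 ± 0.15, edgeR adjusted p = 3.95e-04). PMVK, the phosphomevalonate kinase that acts next, stood at 17.6, 20.8 and 17.3 CPM in hESCs against 9.97, 9.01 and 8.90 CPM in NMP-L cells. PMVK was thus 2.00-fold lower in NMP-L cells (log2 fold change -0.998 ± 0.12, edgeR adjusted p = 2.94e-05), the largest fall of any member, and none of its libraries overlapped. The sequences before both starts are shown for the motifs each holds, a choice made after the values were seen. The capitals mark the same motifs as above, MVK lies at chr12:109573544-109573793, plus strand and PMVK at chr1:154936720-154936969, minus strand.
MVK: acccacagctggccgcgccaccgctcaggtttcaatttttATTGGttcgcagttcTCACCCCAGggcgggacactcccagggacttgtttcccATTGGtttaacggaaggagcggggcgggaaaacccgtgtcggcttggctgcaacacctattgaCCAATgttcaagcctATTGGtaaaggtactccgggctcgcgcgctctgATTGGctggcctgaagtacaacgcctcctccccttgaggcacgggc
PMVK: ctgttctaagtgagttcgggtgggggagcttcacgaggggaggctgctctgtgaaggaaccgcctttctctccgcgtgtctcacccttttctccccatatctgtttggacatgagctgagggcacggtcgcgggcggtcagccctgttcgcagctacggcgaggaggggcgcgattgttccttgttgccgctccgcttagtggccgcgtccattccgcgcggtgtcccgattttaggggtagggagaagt
The MVK promoter held 5 CCAAT boxes and 1 sterol regulatory element with 1 letter different, and in the PMVK window neither motif was found. Neither was found for the higher members CYP51A1, SREBF1, ELOVL6 and FADS1, for AACS, which was lower, or for SCAP, which did not pass the threshold. A CCAAT box was found for 16 of 20 higher members and for 5 of 6 members that did not pass the threshold. HSD17B7, which did not pass the threshold, had 2 CCAAT boxes and 1 such element. A link of these motifs to the direction of change was not tested.

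AACS, which makes acetoacetyl-CoA from the ketone body acetoacetate, was the other lower member, at 82.6 ± 5.66 CPM in hESCs against 55.8 ± 3.12 CPM in NMP-L cells (SD, n = 3, log2 fold change -0.57 ± 0.088, edgeR adjusted p = 2.06e-04). Its 3 hESC libraries all lay above its 3 NMP-L libraries. ACAT2, the cytosolic thiolase that joins acetyl-CoA units at the head of the pathway, moved the other way, from 61.3 ± 1.41 to 98.2 ± 3.68 CPM (log2 fold change 0.68 ± 0.078, edgeR adjusted p = 2.10e-05). The smallest changes of the pathway belonged to MVD, the decarboxylase that makes isopentenyl diphosphate (log2 fold change 0.32 ± 0.10, edgeR adjusted p = 0.0231), and FDPS, the farnesyl diphosphate synthase (log2 fold change 0.20 ± 0.077, edgeR adjusted p = 0.0453). These were the only 2 of the 25 calls that were lost under any of the 17 other settings. Without hESC replicate 1, hESC replicate 3 or NMP-L replicate 1, MVD had edgeR adjusted p = 0.0806, 0.0847 and 0.0885, and FDPS passed the threshold in only 1 of 6 fits with a library removed, with edgeR adjusted p of 0.0554 to 0.156 in the others. FDPS shares 18.6% of its exon bases with an antisense gene, ACAT2 shares 17.2% with TCP1 and IDI1 15.0% with IDI2-AS1, all on the opposite strand. HMGCS1 shares more, 37.7%, with an opposite-strand gene that was not analysed here. Whether the counting used strand is not stated. FDPS, ACAT2 and IDI1 had fractional expected counts, which arise where reads are shared between genes, in 0 libraries. HMGCS1 also had them in 0 libraries, but its partner was not found by name in the expression table. For HMGCS1 the whole counts therefore cannot show whether reads came from that partner. The part of reads from these partners in the values was not tested.

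Of the 11 enzymes that lead from farnesyl pyrophosphate to cholesterol, 8 were higher in NMP-L cells, 0 were lower and 3 did not pass the threshold (median log2 fold change 0.47). MSMO1 (chr4:166248819-166264316, plus strand), an oxidase that removes methyl groups from sterol intermediates, had the largest change of this group. In hESCs it stood at 55.3, 38.5 and 33.6 CPM and in NMP-L cells at 73.4, 94.0 and 119 CPM, or 2.25-fold higher (log2 fold change 1.17 ± 0.19, edgeR adjusted p = 3.21e-04). The spread was wide in both conditions, although the lowest NMP-L library was above the highest hESC library. The 250 bases before its start (chr4:165327419-165327668, plus strand) are shown for their 4 CCAAT boxes and 1 sterol regulatory element with 1 letter different, again chosen after the values were seen.
MSMO1: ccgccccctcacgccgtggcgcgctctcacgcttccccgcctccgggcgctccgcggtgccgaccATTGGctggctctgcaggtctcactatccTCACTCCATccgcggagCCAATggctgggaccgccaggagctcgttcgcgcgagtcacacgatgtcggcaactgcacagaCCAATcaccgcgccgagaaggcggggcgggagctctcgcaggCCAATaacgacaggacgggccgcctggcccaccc

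CYP51A1 (chr7:91714301-91764117, minus strand), the lanosterol demethylase, had 63.0, 52.0 and 52.2 CPM in hESCs against 95.2, 113 and 121 CPM in NMP-L cells (log2 fold change 0.97 ± 0.11, edgeR adjusted p = 1.91e-05). SQLE, the squalene epoxidase, a rate-limiting step of the route, had 74.1, 67.0 and 73.3 CPM and 128, 129 and 133 CPM in the same order (log2 fold change 0.86 ± 0.079, edgeR adjusted p = 3.30e-06). The libraries of each condition were close together for SQLE, so that its difference was large against the spread. SC5D (chr11:121163390-121184119, plus strand), a sterol desaturase that acts near the end of the route, had 77.5, 47.7 and 58.5 CPM in hESCs against 100.2, 105 and 127 CPM in NMP-L cells (log2 fold change 0.86 ± 0.15, edgeR adjusted p = 6.25e-04). SC5D was one of the most scattered members, with hESC replicate 1 well above the other two hESC libraries.

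FDFT1, the squalene synthase that commits farnesyl pyrophosphate to sterols, was the most abundant gene of the sterol group per transcript length, at 203 ± 5.02 TPM in hESCs and 320.3 ± 9.17 TPM in NMP-L cells. In CPM it was 1.46-fold higher in NMP-L cells (log2 fold change 0.55 ± 0.077, edgeR adjusted p = 9.65e-05). Smaller rises were seen for DHCR7, the reductase of the last step to cholesterol (log2 fold change 0.47 ± 0.11, edgeR adjusted p = 0.00308), for EBP, the sterol isomerase (log2 fold change 0.45 ± 0.12, edgeR adjusted p = 0.00687), and for NSDHL, which works with MSMO1 in removing methyl groups (log2 fold change 0.42 ± 0.10, edgeR adjusted p = 0.00409). The members that did not pass the threshold were LSS, the synthase that closes the rings of lanosterol (log2 fold change 0.16 ± 0.085, edgeR adjusted p = 0.133), TM7SF2, a sterol reductase (log2 fold change 0.13 ± 0.11, edgeR adjusted p = 0.314), and HSD17B7, a sterol ketone reductase (log2 fold change -0.07 ± 0.11, edgeR adjusted p = 0.628). On the same strand, CYP51A1 shares 68.2% of its exon bases and EBP 36.4% with annotated genes not analysed here, so their values are uncertain too. HSD17B7 was the only member with fractional expected counts, which arise where reads are shared with another gene, so its value is uncertain.

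Among the 8 fatty acid enzymes, those that desaturate and lengthen fatty acids (SCD, ELOVL6, FADS1 and FADS2) and ACSS2 were higher in NMP-L cells, whereas ACLY, ACACA and FASN did not pass the threshold, which FASN passed with the GC and length correction. Altogether 5 were higher, 0 lower and 3 not past it, with a median log2 fold change of 0.49. SCD (chr10:102106990-102124583, plus strand), the desaturase that makes monounsaturated fatty acids, was the most abundant of all 32 genes in both conditions, at 353 ± 38.7 TPM in hESCs and 664 ± 23.1 TPM in NMP-L cells (SD, n = 3). By library it stood at 1015, 852 and 987 CPM in hESCs against 1703, 1657 and 1669 CPM in NMP-L cells (log2 fold change 0.82 ± 0.077, edgeR adjusted p = 4.24e-06). ELOVL6 (chr4:110967002-111120355, minus strand), the elongase of saturated and monounsaturated fatty acids, went from 89.8, 81.3 and 85.0 CPM to 126, 140.01 and 139.6 CPM (log2 fold change 0.67 ± 0.082, edgeR adjusted p = 3.51e-05). For SCD and ELOVL6 alike, all NMP-L libraries lay above all hESC libraries.

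FADS1 and FADS2 are neighbouring genes for the desaturases of polyunsaturated fatty acids. FADS1 (chr11:61567099-61596790, minus strand) was 122, 119.8 and 118 CPM in hESCs against 227, 231 and 232 CPM in NMP-L cells, with little spread in either (log2 fold change 0.94 ± 0.070, edgeR adjusted p = 6.64e-07). FADS2 was the more abundant of the pair, with 197 ± 15.9 CPM at day 0 and 244 ± 16.1 CPM at day 3 (log2 fold change 0.31 ± 0.085, edgeR adjusted p = 0.0084). The TPM ratio of FADS2 to FADS1 fell from 2.33 ± 0.217 to 1.502 ± 0.123 (SD, n = 3), from 2.09, 2.51 and 2.38 in hESCs to 1.64, 1.46 and 1.40 in NMP-L cells. The ratio did not overlap between conditions, and the exact permutation p was 0.1, again the smallest possible. Exons of the genes share 490 bases on opposite strands, 4.79% of those of FADS1.

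Acetyl-CoA for both routes comes from citrate through ACLY and from acetate through ACSS2. ACSS2 (chr20:33459949-33515765, plus strand), the acetyl-CoA synthetase, was 16.4, 17.4 and 15.9 CPM in hESCs against 32.1, 30.6 and 29.8 CPM in NMP-L cells (log2 fold change 0.89 ± 0.099, edgeR adjusted p = 1.52e-05). ACLY, the ATP citrate lyase, was more abundant at 419, 408 and 422 CPM and 382, 381 and 345 CPM in the same order. The ACLY libraries did not overlap, but the difference missed the threshold (log2 fold change -0.17 ± 0.071, edgeR adjusted p = 0.0581), which it passed under 6 of the 17 other settings, among them the fits without hESC replicate 1 (edgeR adjusted p = 0.0411) and without hESC replicate 2 (0.0438). ACACA, the carboxylase that makes malonyl-CoA and so commits carbon to fatty acids, had 220.5 ± 1.95 CPM in hESCs against 212 ± 7.49 CPM in NMP-L cells (log2 fold change -0.05 ± 0.070, edgeR adjusted p = 0.538). FASN, the fatty acid synthase, had 451 ± 45.5 CPM and 479.9 ± 47.6 CPM with overlapping libraries (log2 fold change 0.09 ± 0.095, edgeR adjusted p = 0.451). FASN was higher with the GC and length correction (0.42 on the log2 scale, edgeR adjusted p = 7.69e-06, or 1.23e-04 with the replicate block added), and its value was -0.017 without hESC replicate 1. For ACLY, ACACA and FASN a 2-fold change lay outside 2 SE of the first value given.

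**Figure D3:**
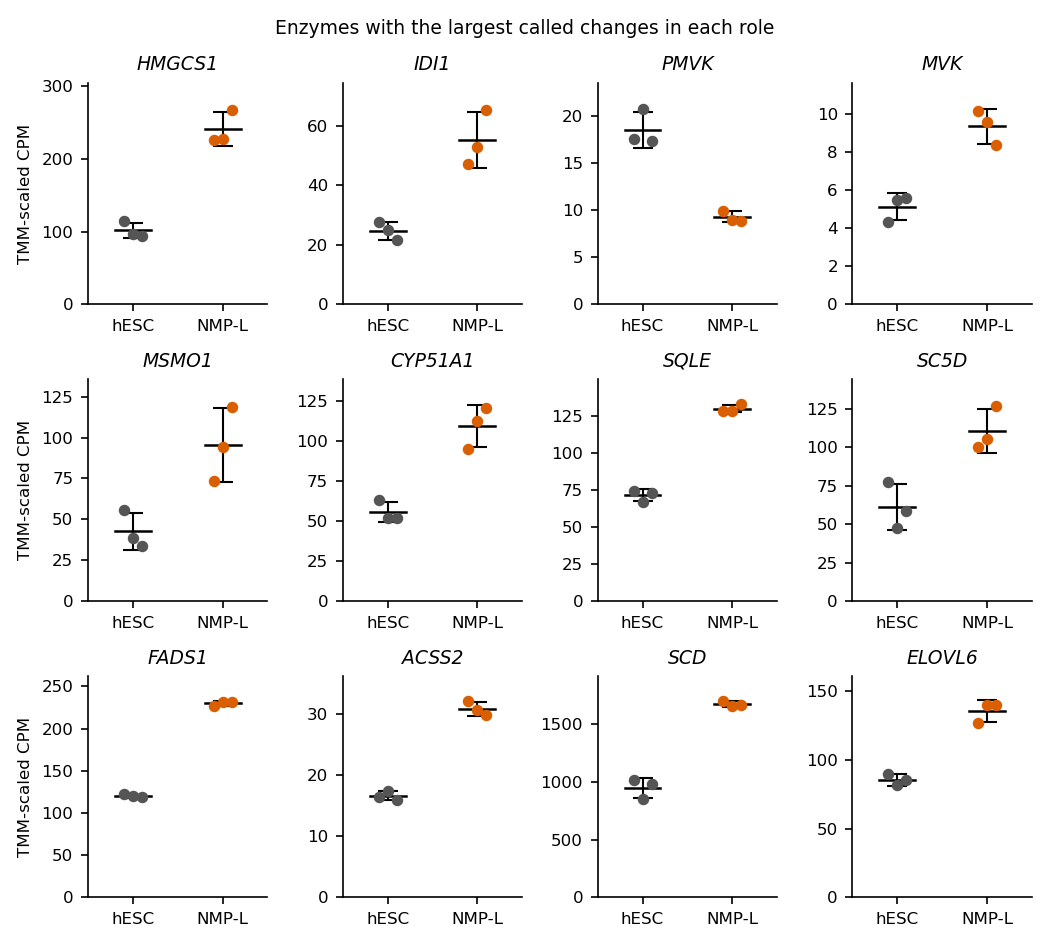
TMM-scaled CPM (linear axes from 0) by library for the 4 enzymes with the largest called changes in each of the 3 enzyme groups, 3 hESC (grey) and 3 NMP-L (orange) libraries, with the mean as a line and ± SD as bars. NMP-L libraries are above hESC libraries in 11 panels, and for PMVK they are below.

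Among the other genes of sterol and isoprenoid synthesis, 4 of 10 tested were higher and 0 lower, with a median log2 fold change of 0.13. The shares over all tested genes, for this list and those below, were 29.1% higher and 26.7% lower. PDSS1, which makes the side chain of ubiquinone, rose from 7.26 ± 0.554 to 14.1 ± 0.211 CPM (log2 fold change 0.96 ± 0.12, edgeR adjusted p = 3.01e-05). Of the tested genes of other sterol and isoprenoid synthesis 6 did not pass the threshold, among them the branches to dolichol (DHDDS) and to geranylgeranyl diphosphate (GGPS1).

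Of 16 genes of SREBP processing and sterol uptake, 8 were higher and 2 lower (median log2 fold change 0.18). With hESC replicate 3 left out 5 were higher, and of all tested genes 23.3% were higher there, beside 29.1% in the first fit. RNF139, a ubiquitin ligase of the endoplasmic reticulum, rose from 28.3 ± 8.31 to 47.9 ± 11.2 CPM (log2 fold change 0.76 ± 0.20, edgeR adjusted p = 0.00697, and 0.0506 without hESC replicate 3). INSIG2, the other retention protein for SCAP, fell from 16.0 ± 4.19 to 10.3 ± 1.12 CPM (log2 fold change -0.63 ± 0.17, edgeR adjusted p = 0.00888), a call lost with limma on log2(TPM + 1) (-0.44, limma adjusted p = 0.0716).

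Sterol efflux and storage genes with the LXR receptors gave 5 higher and 3 lower of 13 tested, with a median log2 fold change of 0.24. SOAT1, which esterifies cholesterol for storage, was 3.76 ± 0.779 CPM in hESCs against 22.0 ± 3.05 CPM in NMP-L cells (log2 fold change 2.55 ± 0.16, edgeR adjusted p = 2.01e-07), and CYP27A1, a sterol hydroxylase, was 4.86 ± 0.799 and 9.30 ± 1.31 CPM (log2 fold change 0.93 ± 0.16, edgeR adjusted p = 4.66e-04). Falls were largest for OSBPL2, an oxysterol-binding protein (log2 fold change -0.78 ± 0.10, edgeR adjusted p = 4.80e-05), and LPCAT3, a phospholipid acyltransferase regulated by LXR (log2 fold change -0.42 ± 0.092, edgeR adjusted p = 0.00222).

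In the remaining genes of fatty acid synthesis 10 of 23 tested were higher and 4 lower, with a median log2 fold change of 0.21. HACD2, a dehydratase of the elongation cycle, went from 34.8 ± 6.55 to 160.2 ± 17.3 CPM (log2 fold change 2.21 ± 0.13, edgeR adjusted p = 1.14e-07), and MLXIPL, the carbohydrate-responsive transcription factor of lipogenic genes, from 8.18 ± 2.08 to 22.6 ± 5.57 CPM (log2 fold change 1.47 ± 0.21, edgeR adjusted p = 1.06e-04). HACD1, a relative of HACD2 (log2 fold change -0.94 ± 0.17, edgeR adjusted p = 6.34e-04), and FADS3 (log2 fold change -0.60 ± 0.11, edgeR adjusted p = 8.42e-04) fell.

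Of 16 glycerolipid genes 5 were higher and 6 lower (median log2 fold change -0.12), beside 29.1% higher and 26.7% lower over all tested genes. LPIN2 (log2 fold change 1.38 ± 0.12, edgeR adjusted p = 1.60e-06) and LPIN1 (log2 fold change 0.96 ± 0.11, edgeR adjusted p = 2.23e-05), phosphatidate phosphatases on the way to diacylglycerol, rose. DGAT2, which makes triglyceride (log2 fold change -1.26 ± 0.23, edgeR adjusted p = 6.54e-04), and PLIN2, a coat protein of lipid droplets (log2 fold change -1.03 ± 0.087, edgeR adjusted p = 1.68e-06), fell. Fatty acid oxidation had 2 higher and 8 lower of 18 tested (median log2 fold change -0.16). CPT1A, which admits long-chain fatty acids to the mitochondrion, fell from 90.4 ± 4.63 to 37.3 ± 6.32 CPM (log2 fold change -1.28 ± 0.12, edgeR adjusted p = 3.58e-06), and its relative CPT1C from 39.8 ± 3.37 to 14.3 ± 1.12 CPM (log2 fold change -1.48 ± 0.11, edgeR adjusted p = 5.88e-07). ACADM, the medium-chain dehydrogenase (log2 fold change 0.58 ± 0.085, edgeR adjusted p = 1.31e-04), and HADHA, of the trifunctional protein (log2 fold change 0.23 ± 0.078, edgeR adjusted p = 0.0283), rose, and HADHA lost its call in 4 of 6 fits with a library removed, with edgeR adjusted p of 0.0634 to 0.121.

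**Figure D4:**
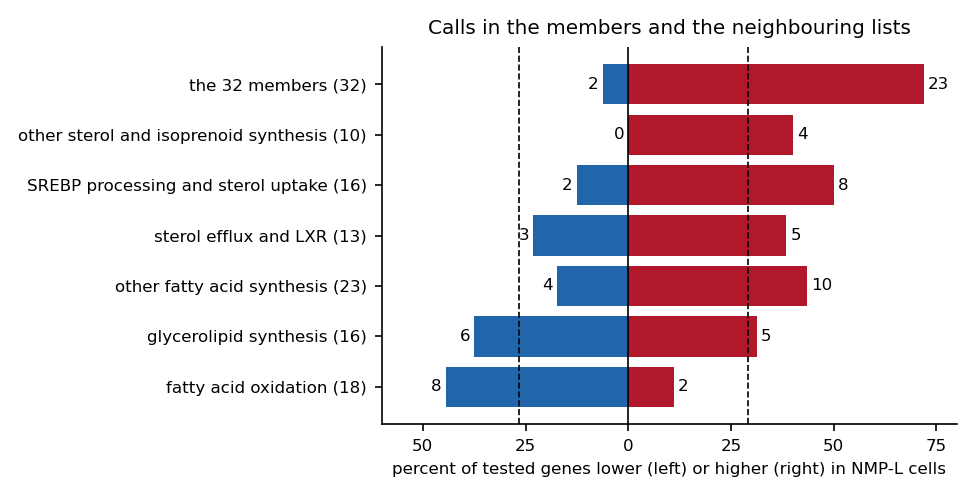
Percent of tested genes higher (right, red) or lower (left, blue) at day 3 by the edgeR test, for the 32 members and 6 related lists, with the number of genes at each bar and the number tested in parentheses. The dashed lines give the share over all tested genes, 29.1% higher and 26.7% lower, and the members reach 71.9% and 6.25%.

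GC content moved with these values and is given here for the members. Over all tested genes the median log2 fold change went from 0.20 in the eighth of genes with the lowest transcript GC content to -0.29 in the highest eighth. Higher members had a median GC content of 47.0%, and those that did not pass the threshold 58.1%. Within conditions the libraries also ordered by GC, over all tested genes as among the members. Over all tested genes of the lowest eighth, the median log2 deviation from the condition mean was 0.23 for hESC replicate 1 and 0.16 for NMP-L replicate 3. In the highest eighth it was -0.14 for hESC replicate 1 and 0.12 for NMP-L replicate 1. All 7 members in the lowest 2 eighths (HMGCS1, IDI1, CYP51A1, MSMO1, SC5D, STARD4 and ELOVL6) were highest in hESC replicate 1, and 6 of the 7 in NMP-L replicate 3. Of the 11 members in the highest 2 eighths, 10 were lowest in hESC replicate 1, and all 11 were highest in NMP-L replicate 1. With both hESC replicate 1 and NMP-L replicate 3 left out, 22 members were higher and 2 lower, only MVD losing its call. In that fit 27.2% of all tested genes were higher. After adjusting the libraries for GC content and transcript length, 27 members were higher and 3 lower. Of all tested genes 33.9% were higher with this adjustment, beside 29.1% without it. FASN (0.42 on the log2 scale), TM7SF2 (0.41), LSS (0.32) and ACLY (-0.15) passed the threshold, and SCAP changed sign to 0.15, also past it. SREBF1, a GC-rich gene, then had a log2 fold change of 1.60 and HMGCS1, a GC-poor one, 1.08. The part of GC content in the sizes of the changes was not tested further.

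**Figure D5:**
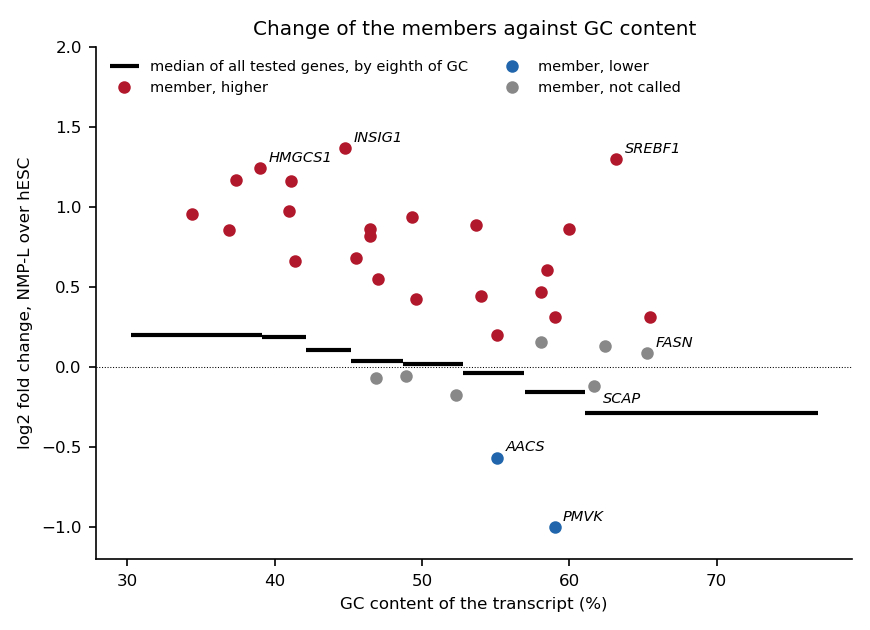
Log2 fold change (NMP-L over hESC) of the 32 members against the GC content of their transcript (%), coloured by the edgeR result, with black bars for the median of all tested genes in each eighth of GC content. The bars descend from 0.20 to -0.29, and all 23 higher members lie above the bar of their eighth.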

How the data were processed

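Transcript levels were measured in 6 libraries (polyadenylated RNA, Kapa mRNA HyperPrep, single-end reads of 76 bp), 3 per condition as the labels group them. The authors deposited RSEM expected counts and TPM per gene in 1 table, in which 0 per-sample columns were left unused. The submitters' processing notes name cutadapt 1.9.1, STAR 2.5.2a, RSEM 1.3.0, DESeq2 1.12.3 and hg19, with no annotation or strand setting. Reads shared between genes are divided by estimate in RSEM, which gave fractional counts in 8.44% of genes.

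The counts, after rounding to whole numbers, were tested in R 4.3.3 with edgeR 4.0.16 (filterByExpr with a minimum count of 10, TMM, glmQLFit and glmQLFTest for condition, threshold 0.05 on p-values adjusted over 15517 genes). Each SE was taken as the log2 fold change over the square root of the F value. Ratios were tested by exact permutation in scipy 1.17.1. The number of libraries limits the precision, and 3 counts served as the floor, counting error only. GC content came from the longest protein-coding transcript in GENCODE on GRCh37 (97.3% of tested genes). The scripts were tested on simulated data.

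The alternatives were RLE and upper-quartile factors, library size alone, DESeq2 1.42.0, stricter and looser filters, limma 3.58.1 on log2(TPM + 1), the replicate number as a block, lowess correction for GC content and length (span 0.3), and each library left out. A fit without both libraries whose GC-poor genes stood highest was added after seeing the data. The members and lists were chosen with earlier results of these data known. All members are named, and values by library are given for the regulators and for the 4 called members with the largest change in each enzyme group. Of each other list, the 2 largest called rises and falls are named, except that single values of some list genes are left out here.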

Additional observations from a re-analysis of the deposited data

How the results depend on the processing

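Across the 17 other settings, 23 of the 25 calls kept their direction and their side of the threshold, and none of the 25 reversed. FDPS and MVD lost theirs under 10 and 6 settings. Members higher by at least 2-fold numbered 8 with library size alone and 4 to 8 with 1 library left out, the 8 arising without hESC replicate 1. The share of tested genes higher by at least 2-fold, 9.38% in the first fit, was not taken in these settings, so these counts have no like share beside them. Of all tested genes 34.25% were higher at any fold with library size alone and 28.6% without hESC replicate 1, against 29.1% in the first fit. Lower fatty acid enzymes went from 0 to 1 (ACLY) with RLE factors, upper-quartile factors, DESeq2 and the GC and length correction, and were 0 to 1 with 1 library left out. Values of members without a call reversed for HSD17B7 (0.0056 with library size alone, 0.033 with limma on TPM), ACACA (0.021 and 0.037 in the same order), SCAP (0.15 with the GC and length correction, 0.14 with the replicate block added) and FASN (-0.017 without hESC replicate 1).

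In the related lists, the GC and length correction gave 2 lower genes of other sterol synthesis (2 with the block). Lower genes of SREBP processing and uptake numbered 4 with that correction and 1 with limma, INSIG2 losing its call. Higher genes of SREBP processing numbered 5 to 8 with 1 library left out. The 5 arose without hESC replicate 3, where 23.3% of all tested genes were higher. Higher fatty acid oxidation genes numbered 1 with upper-quartile factors, 4 with limma, 1 with the replicate block and 1 to 3 with 1 library left out (1 without hESC replicate 1, hESC replicate 3 or NMP-L replicate 1). Of all tested genes 27.2% were higher with upper-quartile factors, 34.3% with limma and 25.2% with the block. Without hESC replicate 1, hESC replicate 3 or NMP-L replicate 1 the shares were 28.6%, 23.3% and 27.1%, beside 29.1% in the first fit. The share of all tested genes that were lower was not taken in the other settings. The share of member promoters with a sterol regulatory element was 44.7% when 1 letter could differ. The cause of these shifts was not tested.

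Both conditions number their replicates 1 to 3 in the labels, but same-numbered libraries did not deviate together (correlations -0.342, -0.064 and -0.125), and the pair that did so most was hESC replicate 1 with NMP-L replicate 3 (0.243). With the replicate block 21 members were higher and 2 lower, and 25.2% of all tested genes were higher. The ratio of SREBF1 to SREBF2 changed by 0.57 to 0.85 on the log2 scale and that of FADS2 to FADS1 by -0.71 to -0.57 with 1 library left out.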

Other observations

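MMAB, which lies head to head with MVK and codes for an enzyme of vitamin B12 metabolism, was also higher in NMP-L cells, with a log2 fold change of 1.31 ± 0.12 (edgeR adjusted p = 3.02e-06) and a mean level of 9.48 CPM at day 0 and 23.5 CPM at day 3. It was looked up after the value of MVK was seen. The exons of MVK share 225 bases with those of MMAB on the opposite strand, 2.495% of MVK's exon bases.

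Some genes of the related lists outside the naming rule, chosen after their values were seen, also stood well apart. Malic enzyme ME1, a source of the NADPH used in lipid synthesis, was 10.9 ± 0.822 CPM in hESCs against 24.1 ± 1.78 CPM in NMP-L cells (log2 fold change 1.15 ± 0.11, edgeR adjusted p = 6.12e-06). The long-chain acyl-CoA synthetase ACSL3, which activates fatty acids, was 88.8 ± 10.9 and 219 ± 20.9 CPM (log2 fold change 1.30 ± 0.10, edgeR adjusted p = 1.18e-06). ABCA1, the cholesterol exporter activated by LXR, was 27.2 ± 5.23 and 51.2 ± 4.02 CPM (log2 fold change 0.91 ± 0.13, edgeR adjusted p = 1.28e-04). PPARA, the receptor that activates fatty acid oxidation, was 12.9 ± 0.837 and 7.76 ± 0.496 CPM (log2 fold change -0.73 ± 0.12, edgeR adjusted p = 2.87e-04).

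The members were somewhat less variable than tested genes within conditions, with a median coefficient of variation of 6.81% in hESCs and 7.40% in NMP-L cells, against 10.0% and 9.32% over all tested genes. No test was made of this difference, and genes with more counts vary less.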
